A study of Homo sapiens with 6 samples.

Results

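The genes described here encode the enzymes and carriers of the TCA cycle, of anaplerosis and of glutamine use, and their transcript levels were compared in HCT116 cells with intact METTL3 (WT) and with METTL3 knocked out (METTL3-KO). The list held 35 genes, taken by symbol from their known roles, with no measured value in the rule but with earlier results of these data known, out of 56638 symbols in the count files. METTL3 is the catalytic subunit of the complex that writes N6-methyladenosine (m6A) on mRNA, and the series asked how its loss changes transcript levels. HCT116 is an established human colorectal carcinoma line. Total RNA came from 3 WT and 3 METTL3-KO samples at the same stated passage range, grown in the same serum-supplemented medium, with no drug treatment in the labels. The METTL3-KO cells were made by CRISPR/Cas9 delivered by lentivirus with puromycin selection and expanded from a single clone, so the knockout group stands for 1 clone, and what the WT cells received of the vector or the selection was not given in the labels. Nothing in the labels says that the 3 samples of a group came from separate cultures, so the p-values below measure only the spread between these samples, which may be technical.

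The TCA cycle oxidises acetyl-CoA in the mitochondrial matrix and hands its electrons to the respiratory chain, while its intermediates are drawn off for the synthesis of lipids, amino acids and nucleotides. Anaplerosis refills the cycle, mainly through pyruvate carboxylase and through glutamine, which is deaminated to glutamate and then converted to oxoglutarate. Proliferating tumour cells, colorectal lines among them, are known for heavy use of glutamine as a source of carbon and nitrogen for the cycle. Several steps exist as a cytosolic and a mitochondrial isoenzyme, and mitochondrial carriers exchange citrate, malate and oxoglutarate between the compartments.

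Read pairs assigned to genes ranged from 20936091 to 30142144 per sample. METTL3 itself was counted 841, 682 and 623 times in WT 1 to 3 and 219, 169 and 162 times in METTL3-KO 1 to 3, a log2 fold change of -2.04 ± 0.09 (standard error; adjusted p = 3.26e-07). The deposited files call the METTL3-KO samples by a name other than a knockout, and the groups used here are those of the labels. The labels do not give the edited exon, so this drop in counts agrees in direction with the labels but does not measure the edit. The third sample stood apart in both groups. A chi-square statistic per gene of 2.58 separated WT 1 from WT 2, against 23.1 and 23.0 between WT 3 and these samples, and in the knockout group the corresponding values were 2.34 against 11.2 and 8.32. Across genes, the deviations of WT 3 and METTL3-KO 3 from their group means had a correlation of -0.78, so these samples deviated in opposite directions. All 10 epithelial markers were detected in every group, with a summed level of 6044 to 7503 CPM (counts scaled by the library's normalized size) in WT and 9072 to 9995 in METTL3-KO. Within that list KRT20 rose 2.83-fold and LGR5 fell to 0.383 of its WT level. The 6 leukocyte markers summed to 1016 to 1055 CPM in WT and 678.2 to 734.9 in METTL3-KO, nearly all of it LYZ, while the pan-leukocyte gene PTPRC was at or near 0. The 6 fibroblast markers summed to 4.92 to 6.74 CPM in WT and 8.86 to 9.86 in METTL3-KO, with COL1A2 and COL3A1 at 0. Among them LUM rose from 0.39 to 2.23 CPM. The 4 endothelial markers stayed at or below 0.182 CPM in sum. The part of these marker shifts in the results below was not tested.

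All 35 members were expressed well enough to be tested, with 117 to 11274 counts per sample. With edgeR's quasi-likelihood test and Benjamini-Hochberg adjustment over 22452 tested genes, 13 of 35 members (37.1%) passed an adjusted p of 0.05, 7 lower and 6 higher in METTL3-KO. Over all tested genes 26.8% passed, 13.4% lower and 13.4% higher. Among the 10480 tested genes at or above the level of the least abundant member, 40.7% passed, 20.6% lower and 20.1% higher, and the 7 lower and 6 higher members were similar shares of 35. The members were thus called about as often as these 10480 genes, in both directions, and the count is no result about the list. These genes are called genes of like level below, but they share only that lower bound and were not matched to the members. The counts by step below rest on few genes each and were not tested against these shares. The median log2 fold change was 0.03 over the members and -0.02 over all tested genes. The median absolute log2 fold change was 0.15 over the members, 0.22 over the 10480 genes of like level and 0.34 over all tested genes. GLS2 was the single member whose absolute log2 fold change exceeded 0.5. The CPM of WT and METTL3-KO samples did not overlap for 14 members of 35, the 13 called members and PDHX, where 54.0% of the genes of like level had groups without overlap.

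**Figure D1:**
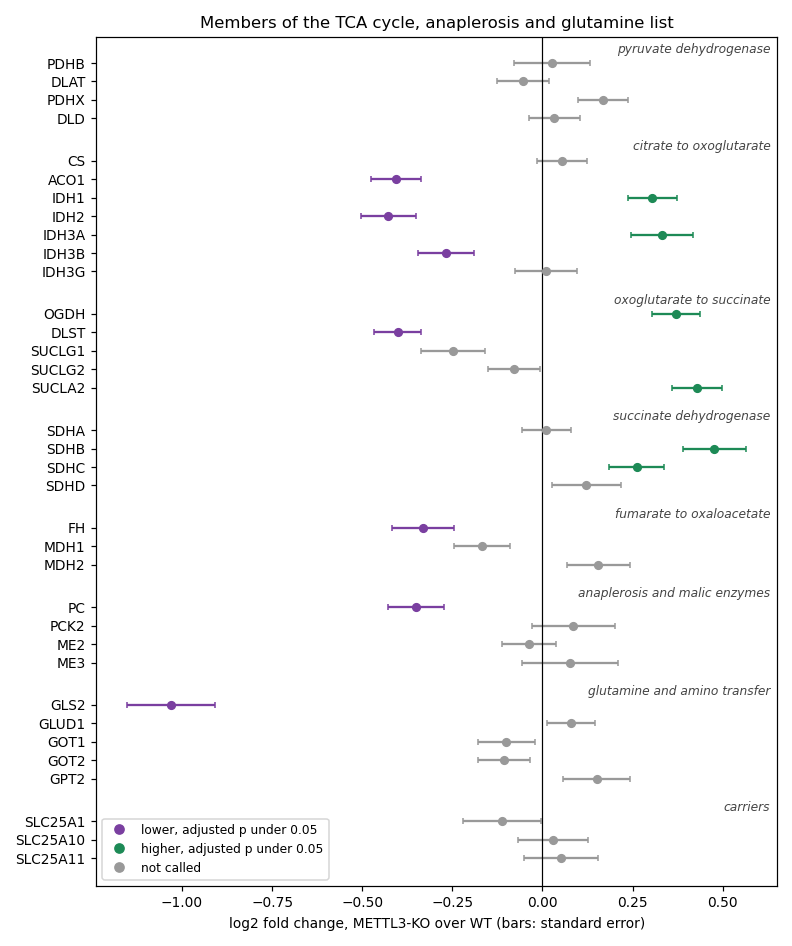
Log2 fold change (METTL3-KO over WT, horizontal axis) of each of the 35 members, grouped by role, with standard errors as bars. Of the 35 points, 7 are marked lower, 6 higher and 22 not called. GLS2, at -1.03, lies far to the left of the others, and called members of opposite direction sit within the same steps of the cycle.

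Counted per kilobase of the canonical transcript, the most abundant members in WT were MDH2 (157.3 CPM per kb), SDHA (141.2) and IDH1 (116.5), and the least abundant were ME2 (3.84), GLS2 (4.22), ME3 (5.74) and IDH3A (5.74). IDH1 stood above IDH2 (87.8), MDH2 above MDH1 (86.4) and GOT2 above GOT1 (41.3) on this scale. In METTL3-KO the same members held the top of the order, joined by SDHB at 125.8 CPM per kb, and GLS2 moved to the bottom at 2.07.

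The pyruvate dehydrogenase complex turns pyruvate into acetyl-CoA, the fuel of the cycle. None of its 4 members on the list passed the test (edgeR; DESeq2 also called 0), and PDHX alone had an unadjusted p under 0.05 (0.0322). PDHX, which anchors the dihydrolipoamide dehydrogenase to the core, had 56.7, 55.6 and 56.7 CPM in WT 1 to 3 and 61.3, 65.1 and 63.6 CPM in METTL3-KO 1 to 3. Its groups did not overlap, and its log2 fold change was 0.17 ± 0.07 (adjusted p = 0.0949). PDHB, the beta subunit of the first enzyme, averaged 32.9 ± 4.1 CPM in WT and 33.5 ± 3.0 in METTL3-KO (SD, n = 3). DLAT, the acetyltransferase core, averaged 80.5 ± 4.2 and 77.4 ± 2.9 CPM, and DLD, the dehydrogenase shared with the oxoglutarate complex, averaged 116.3 ± 5.8 and 119.0 ± 3.5 CPM. Their log2 fold changes lay between -0.06 and 0.03.

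From citrate to oxoglutarate, 3 of 7 members fell, 2 rose and 2 did not pass, where 40.7% of the genes of like level passed. This small count was not tested against that share. ACO1 (chr9:32384601-32454767, plus strand), a cytosolic aconitase that also binds iron-responsive mRNA elements when it lacks its iron-sulfur cluster, had 67.4, 65.1 and 67.4 CPM in WT 1 to 3 and 49.6, 52.1 and 49.2 CPM in METTL3-KO 1 to 3. The knockout samples all lay under the WT samples, and the log2 fold change was -0.41 ± 0.07 (adjusted p = 0.00129). The NADP-dependent isocitrate dehydrogenases went in opposite directions. IDH1 (chr2:209100953-209130798, minus strand), the cytosolic form and a source of cytosolic NADPH, had 265.3, 282.9 and 261.8 CPM in WT and 322.2, 334.7 and 344.1 CPM in METTL3-KO, a rise of 0.31 ± 0.07 (adjusted p = 0.0057). IDH2 (chr15:90626277-90645709, minus strand), the mitochondrial form, had 253.3, 227.5 and 219.6 CPM in WT and 165.9, 172.0 and 182.9 CPM in METTL3-KO, a log2 fold change of -0.43 ± 0.08 (adjusted p = 0.00171). Neither gene's groups overlapped.

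The NAD-dependent isocitrate dehydrogenase, the form that works in the cycle itself, is built from alpha, beta and gamma subunits. IDH3A (chr15:78423840-78464287, plus strand), the catalytic alpha subunit, had 22.0, 22.9 and 25.3 CPM in WT and 30.9, 28.7 and 28.7 CPM in METTL3-KO, a rise of 0.33 ± 0.09 (adjusted p = 0.0139). IDH3B (chr20:2639041-2644865, minus strand), the beta subunit, had 129.2, 131.5 and 113.6 CPM in WT and 103.6, 99.3 and 107.8 CPM in METTL3-KO, a log2 fold change of -0.27 ± 0.08 (adjusted p = 0.0244). IDH3G, the gamma subunit, averaged 137.2 ± 10.4 and 138.1 ± 12.7 CPM, with overlapping groups and a log2 fold change of 0.01. The subunits of this enzyme therefore had no common direction. IDH3A did not pass without WT 1 (0.29, adjusted p = 0.062) or without METTL3-KO 1 (0.30, adjusted p = 0.0697). IDH3B lost its call without any single sample among WT 1, WT 2, METTL3-KO 1 and METTL3-KO 2 (log2 fold change -0.22 to -0.27, adjusted p = 0.085 to 0.12). Exons of ACSBG1 and CIB2 on the opposite strand overlap 38.8% of the IDH3A exon sequence; ACSBG1 averaged 0.81 and 1.45 CPM and CIB2 averaged 2.86 and 1.38 CPM in WT and METTL3-KO. CS, the citrate synthase that opens the cycle, was abundant and close between groups at 226.4 ± 12.3 and 235.3 ± 6.9 CPM (log2 fold change 0.06, adjusted p = 0.592).

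**Figure D2:**
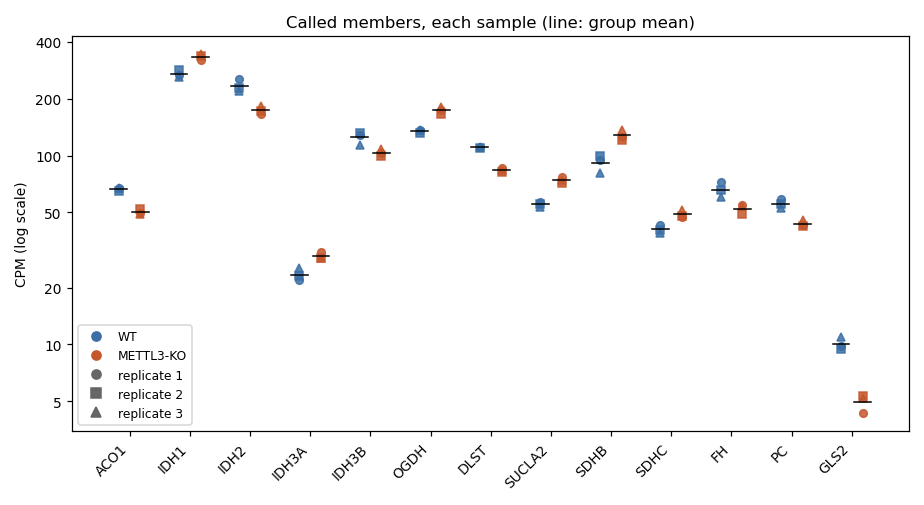
CPM (log axis) of the 13 called members in each of the 6 samples, with replicate 1 to 3 as different symbols and the group mean as a line. For each gene the 3 WT and 3 METTL3-KO points do not overlap, and the separation is widest for GLS2, at 9.47 to 10.9 CPM in WT and 4.35 to 5.32 CPM in METTL3-KO.

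Between oxoglutarate and succinate, 1 of 5 members fell, 2 rose and 2 did not pass, where 40.7% of the genes of like level passed. The oxoglutarate dehydrogenase complex was split in direction between its first and its second enzyme. OGDH (chr7:44646171-44748665, plus strand), the thiamine-dependent first enzyme, had 135.8, 131.3 and 135.8 CPM in WT 1 to 3 and 174.8, 166.2 and 179.6 CPM in METTL3-KO 1 to 3, a rise of 0.37 ± 0.07 (adjusted p = 0.00175). DLST (chr14:75348594-75370446, plus strand), the lipoate-bearing succinyltransferase core, had 111.3, 109.9 and 110.8 CPM in WT and 85.5, 81.6 and 84.1 CPM in METTL3-KO. This was a log2 fold change of -0.40 ± 0.07 (adjusted p = 0.000946), and the WT samples spread by an SD of only 0.68 CPM.

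Succinyl-CoA ligase combines a common alpha subunit with a beta subunit that makes it ADP-forming or GDP-forming. SUCLA2 (chr13:48319871-48612104, minus strand), the ADP-forming beta subunit, had 56.5, 55.7 and 53.6 CPM in WT and 76.8, 71.5 and 74.7 CPM in METTL3-KO. The rise was 0.43 ± 0.07 (adjusted p = 0.000986), with no overlap between groups. SUCLG2, the GDP-forming beta subunit, averaged 41.8 ± 0.8 and 39.6 ± 1.4 CPM (log2 fold change -0.08, adjusted p = 0.457), and its pseudogene SUCLG2P2 was given 195 to 289 counts per sample. SUCLG1, the common alpha subunit, averaged 90.0 ± 9.5 and 75.8 ± 4.5 CPM with a log2 fold change of -0.25 ± 0.09 (adjusted p = 0.061). Its groups overlapped through WT 3, at 79.1 CPM, and METTL3-KO 3, at 80.9 CPM. Without WT 3 the log2 fold change of SUCLG1 was -0.33 and passed (adjusted p = 0.001). SUCLG1 did not pass when any other single sample was left out (adjusted p = 0.0574 to 0.206).

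Succinate dehydrogenase is at once an enzyme of the cycle and complex II of the respiratory chain. Of its 4 subunits 2 rose and 2 did not pass, where 40.7% of the genes of like level passed. SDHB (chr1:17345159-17380527, minus strand), the iron-sulfur subunit, had 94.6, 99.6 and 80.9 CPM in WT and 125.7, 121.4 and 135.9 CPM in METTL3-KO, a rise of 0.48 ± 0.09 (adjusted p = 0.00208). This was the largest increase among the 35 members, equal to 1.39-fold. SDHC (chr1:161284171-161332996, plus strand), a membrane anchor, had 42.7, 40.6 and 39.1 CPM in WT and 47.1, 48.1 and 51.5 CPM in METTL3-KO, a rise of 0.26 ± 0.08 (adjusted p = 0.0258). SDHC lost its call without any single sample among WT 2 and METTL3-KO 1 to 3 (log2 fold change 0.22 to 0.29, adjusted p = 0.0521 to 0.0853). SDHD, the other anchor, averaged 71.5 ± 5.4 and 77.9 ± 9.1 CPM (log2 fold change 0.12, adjusted p = 0.377). SDHA, the flavoprotein subunit, averaged 380.1 ± 19.1 and 383.2 ± 15.8 CPM (log2 fold change 0.01, adjusted p = 0.923). Its near-identical copies SDHAP1 and SDHAP3 were given 365 to 566 and 163 to 321 counts per sample. Pairs with several alignments were in no gene's count, so pairs aligned to both SDHA and a copy are missing from the SDHA value.

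From fumarate to oxaloacetate, 1 of 3 members fell. FH (chr1:241660811-241683099, minus strand), the fumarate hydratase and a tumour suppressor in renal cancer, had 72.0, 65.6 and 60.1 CPM in WT and 54.4, 48.8 and 54.0 CPM in METTL3-KO. The log2 fold change was -0.33 ± 0.09 (adjusted p = 0.015), and it did not pass without WT 1 (-0.26, adjusted p = 0.0693) or without METTL3-KO 2 (-0.28, adjusted p = 0.0895). MDH1, the cytosolic malate dehydrogenase of the malate-aspartate shuttle, averaged 111.9 ± 7.0 and 99.7 ± 5.9 CPM (log2 fold change -0.17 ± 0.08, adjusted p = 0.137), and passed without WT 3 (-0.22, adjusted p = 0.0165). MDH1 passed in no other fit that left out a single sample (adjusted p = 0.0964 to 0.349). MDH2, the mitochondrial form, ranged from 309.1 to 368.5 CPM in WT and from 351.6 to 418.7 CPM in METTL3-KO (log2 fold change 0.16 ± 0.09, adjusted p = 0.223).

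Of the 4 enzymes that refill or drain the cycle at the level of pyruvate and phosphoenolpyruvate, 1 fell. PC (chr11:66615888-66725857, minus strand), the pyruvate carboxylase that makes oxaloacetate from pyruvate, had 59.0, 55.4 and 52.5 CPM in WT and 43.0, 42.2 and 45.7 CPM in METTL3-KO. The log2 fold change was -0.35 ± 0.08 (adjusted p = 0.00576), with no overlap between groups. PCK2, the mitochondrial phosphoenolpyruvate carboxykinase that uses oxaloacetate, averaged 85.1 ± 15.2 and 90.3 ± 5.8 CPM, and its 3 WT samples spanned 69.0 to 99.1 CPM (log2 fold change 0.09, adjusted p = 0.622). The mitochondrial malic enzymes ME2 and ME3, which turn malate into pyruvate, had log2 fold changes of -0.04 and 0.08 (adjusted p = 0.755 and 0.712), at 34.7 and 33.8 CPM for ME2 and 13.2 and 13.9 CPM for ME3.

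Among the 5 members that bring glutamine into the cycle and pass amino groups, GLS2 fell and 4 did not pass. GLS2 (chr12:56864728-56882198, minus strand), a mitochondrial glutaminase known as a p53 target, had 269, 214 and 233 counts in WT 1 to 3 and 131, 117 and 122 counts in METTL3-KO 1 to 3. In CPM these were 9.80, 9.47 and 10.9 against 4.35, 5.32 and 5.19. The highest knockout sample lay far under the lowest WT sample. The log2 fold change was -1.03 ± 0.12 (adjusted p = 0.000124), which put METTL3-KO at 0.49 of WT. This was the largest change of the list at its second-lowest level per kb. Exons of other genes overlap 82.8% of the GLS2 exon sequence, namely a gene without a symbol on the same strand and SPRYD4 on the opposite strand. The part of each in this overlap was not separated. SPRYD4 averaged 18.2 ± 0.9 and 19.5 ± 0.1 CPM (log2 fold change 0.10, adjusted p = 0.422). The strand setting of the counting was not given in the sources used here. Where the annotation used for the counting gave GLS2 and SPRYD4 shared exons, pairs there were assigned by strand or left out of both counts. If that annotation held the gene without a symbol, strand could not separate it from GLS2, and pairs in their shared exons were left out of both counts. Neither condition was tested, nor how many GLS2 pairs were lost. GLUD1, the glutamate dehydrogenase that makes oxoglutarate, averaged 133.9 ± 3.2 and 141.3 ± 5.3 CPM (log2 fold change 0.08, adjusted p = 0.424) and shares nearly all of its coding sequence with GLUD2. The aspartate aminotransferases GOT1 (cytosolic) and GOT2 (mitochondrial) had log2 fold changes of -0.10 and -0.11 (adjusted p = 0.393 and 0.316). GPT2, the mitochondrial alanine aminotransferase, had one of 0.15 (adjusted p = 0.261), and of 0.26 without WT 3 (adjusted p = 0.00527). No other fit with a single sample left out called GPT2 (adjusted p = 0.327 to 0.583).

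None of the 3 mitochondrial carriers passed (edgeR; 0 at an unadjusted p under 0.05 and 0 by DESeq2). SLC25A1, which exports citrate for lipid synthesis, averaged 136.7 ± 18.9 and 126.6 ± 13.7 CPM (log2 fold change -0.11 ± 0.11, adjusted p = 0.489). Without WT 3 its log2 fold change was -0.22 (adjusted p = 0.0352). It was -0.04 without WT 1 (adjusted p = 0.85) and -0.04 without METTL3-KO 1 (adjusted p = 0.864). SLC25A1 passed in only 1 of the 6 fits that left out a single sample. Calls over all genes also rose without WT 3, from 3007 lower and 3013 higher to 3820 and 3807. SLC25A10, the dicarboxylate carrier, averaged 59.7 ± 7.0 and 61.0 ± 4.6 CPM, and SLC25A11, the oxoglutarate-malate carrier, averaged 40.4 ± 4.3 and 41.8 ± 4.4 CPM. Exons of another gene on the same strand overlap 46.6% of the SLC25A10 exon sequence.

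Promoter sequence was looked at as a feature the list did not use. RefSeq promoters (GRCh38.p14, 250 bases before to 50 after the start) were matched for 32 of 35 members, with none for OGDH, SDHC and GPT2, and each was searched on both strands for the exact words CCGGAAGT (ETS factors, including GABPA), CGCATGCG (NRF1 core), CACGTG (E-box) and CCAAT. GABPA and NRF1 are known as factors of nuclear genes for mitochondrial proteins. The ETS word was in 4 member promoters (12.5%), against 4.44% of all 27305 promoters and 7.74% of the promoters of tested genes. These 4 windows are shown because they hold the same word in front of genes with different outcomes, with the word or its reverse complement in capitals.
IDH3B: ctcagtacaggCCGGAAGTcggggtacggg
DLST: cggcccgccccACTTCCGGttgttgtccgg
SDHD: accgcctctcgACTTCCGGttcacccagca
MDH2: ctttccgactcCCGGAAGTggccgtgatct
They lie at chr20:2664238-2664267 (minus strand), chr14:74881882-74881911 (plus strand), chr11:112086784-112086813 (plus strand) and chr7:76047982-76048011 (plus strand). IDH3B and DLST fell in METTL3-KO, whereas SDHD (0.12) and MDH2 (0.16) did not pass. The CCAAT word was in 16 of the 32 member promoters (35.7% of all promoters, 36.2% of those of tested genes), among them SUCLA2, which rose, and FH and PC, which fell. The E-box word was in those of ME3 and PDHB (6.25%; 7.43% of all, 9.61% of those of tested genes) and the NRF1 word in that of SDHD alone (3.12%; 2.19% of all, 3.47% of those of tested genes). These matches describe letters in the window and were not tested against the fold changes.

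Ratios of paired enzymes within a sample do not depend on the scaling between samples, and 7 such ratios were taken. With 3 samples against 3, a two-sided exact permutation test cannot give a p below 0.1. The IDH1 to IDH2 count ratio was 1.05, 1.24 and 1.19 in WT 1 to 3. In METTL3-KO 1 to 3 it was 1.94, 1.95 and 1.88, so IDH1 counts went from near parity with IDH2 counts to a clear excess. That difference was 0.73 on the log2 scale (exact permutation p = 0.1, or 0.14 adjusted over 7 ratios). Per kb of canonical transcript, IDH1 already stood above IDH2 in WT (116.5 and 87.8 CPM per kb). The GLS2 to GLUD1 ratio was 0.0742, 0.0717 and 0.0794 in WT and 0.0299, 0.0393 and 0.0362 in METTL3-KO (log2 difference -1.10). SUCLG2 to SUCLA2, the GDP-forming over the ADP-forming beta subunit, went from 0.757 ± 0.021 to 0.533 ± 0.028 (log2 difference -0.51). PC to PCK2 went from 0.67 ± 0.14 to 0.484 ± 0.013 (log2 difference -0.45), with WT 3 at 0.53 next to a highest knockout value of 0.497. MDH1 to MDH2 went from 0.328 ± 0.012 to 0.263 ± 0.011 (log2 difference -0.32). In these 5 ratios the groups did not overlap, each at the smallest p the test can give. No share was taken over other gene pairs, and 54.0% of single genes of like level also had groups without overlap. The ratios with IDH1, IDH2, SUCLA2, PC or GLS2 hold members already called in the same counts, so they are not separate evidence. GOT1 to GOT2 stayed at 0.602 ± 0.011 and 0.605 ± 0.032 with overlapping groups (exact permutation p = 1.0). ME2 to ME3 was 2.70 ± 0.55 and 2.46 ± 0.30, also overlapping (exact permutation p = 0.7).

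**Figure D3:**
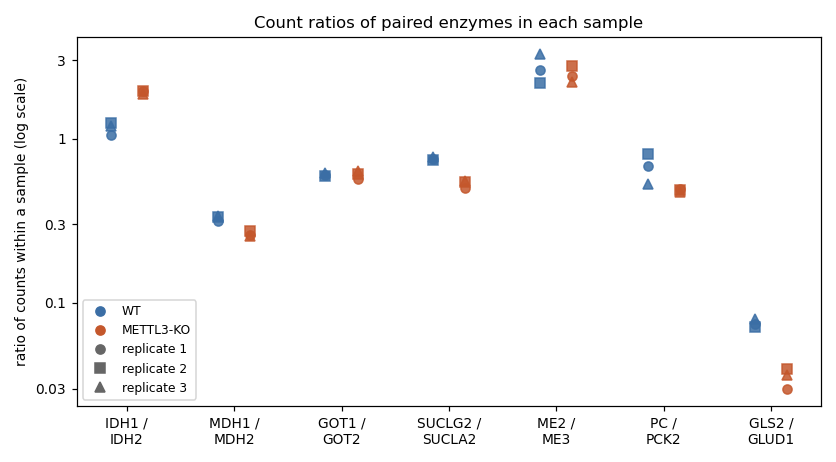
Ratio of counts of 2 members within each sample (log axis) for 7 pairs, with WT and METTL3-KO side by side and replicates 1 to 3 as different symbols. The groups are apart for IDH1 over IDH2 (1.05 to 1.24 in WT, 1.88 to 1.95 in METTL3-KO), MDH1 over MDH2, SUCLG2 over SUCLA2, PC over PCK2 and GLS2 over GLUD1, and overlap for GOT1 over GOT2 and ME2 over ME3.

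Because the third samples stood apart, each value was also taken without them. The 13 called members kept their sign and passed in that fit, with GLS2 at -1.02, IDH2 at -0.51, SDHB at 0.35 and SDHC at 0.19. Then 13 members were lower and 8 higher (37.1% and 22.9%), where 22.6% and 21.5% of the 21242 genes tested in that fit were, and 35.1% and 31.6% of the 10480 genes of like level. The additional calls were SUCLG1 (-0.39), SLC25A1 (-0.31), MDH1 (-0.27), GOT1 (-0.18), GOT2 (-0.16) and IDH3G (-0.13) among the lower and GPT2 (0.24) and PDHX (0.17) among the higher. The median of the members moved from 0.03 to -0.10. Of the 13 called members, ACO1, IDH2, OGDH, DLST, SUCLA2, SDHB and GLS2 (7) passed under all 14 alternatives of tool, normalization, filter, block, length and GC correction and samples, and IDH1 and PC also passed whichever single sample was left out.

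**Figure D4:**
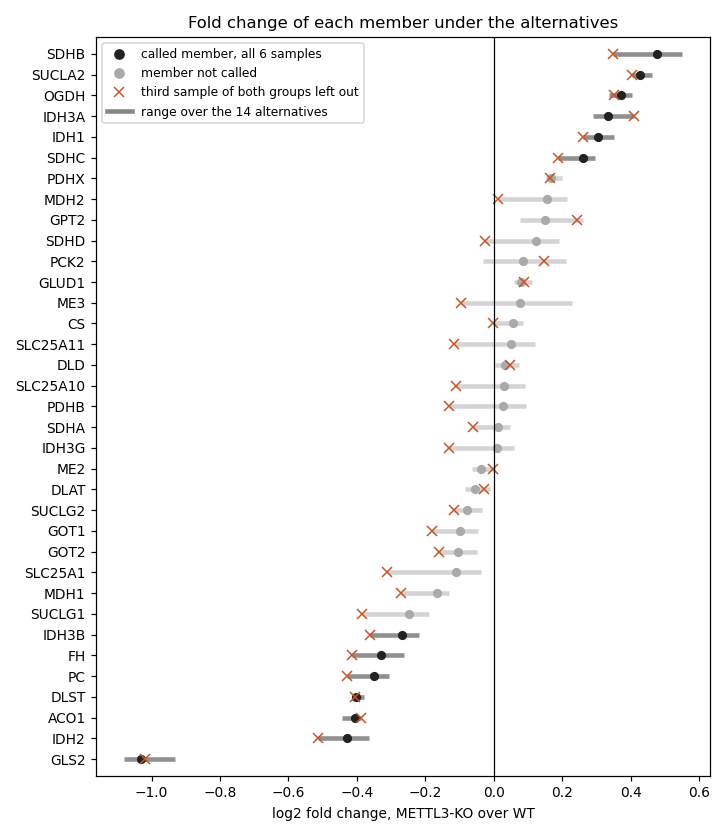
Log2 fold change (METTL3-KO over WT, horizontal axis) of each member with all 6 samples (dots), its range over the 14 alternatives (bars) and its value without the third sample of both groups (crosses). The 13 called members stay on one side of 0 over their whole range, for example -1.08 to -0.93 for GLS2, while 10 uncalled members, among them PDHB (-0.13 to 0.09), cross 0.

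Further enzymes of the same reactions, not on the list, were counted as a separate list of 11, of which 10 were tested and 3 passed (background 26.8% of all tested genes). ME1, the cytosolic malic enzyme that makes NADPH, went from 34.0 ± 1.6 to 50.7 ± 4.4 CPM, a rise of 0.58 ± 0.09 (adjusted p = 0.000504). DHTKD1, the oxoadipate dehydrogenase, fell by 0.23 on the log2 scale (adjusted p = 0.0375).

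Of 9 kinases, phosphatases and carriers that govern the entry of pyruvate, 2 fell and none rose (22.2% called), with a median log2 fold change of -0.28. PDK2, a kinase that switches pyruvate dehydrogenase off, went from 34.8 ± 1.0 to 22.8 ± 0.7 CPM (log2 fold change -0.61 ± 0.08, adjusted p = 0.000177). PDPR, a regulator of the phosphatase that switches it back on, had 35.4, 31.4 and 57.0 CPM in WT and 23.3, 23.2 and 15.8 CPM in METTL3-KO (log2 fold change -0.99 ± 0.21, adjusted p = 0.00488). The third samples held its extremes, and PDPR has near-identical copies in the genome. Leaving out WT 3 or METTL3-KO 2 gave 4 calls on this list in place of 2. Factors that attach lipoate to the dehydrogenase complexes or assemble complex II gave 0 calls of 11 tested by edgeR and 0 by DESeq2. By edgeR 26.8% of all tested genes passed. On the lipoate and assembly list 4 of 11 had an unadjusted p under 0.05, and there were 3 calls without WT 3 and 1 without METTL3-KO 3.

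Glutamine carriers and amidotransferases gave 4 lower and 2 higher of 17 tested (35.3%). Of all tested genes 26.8% passed, and of the genes at or above the least abundant of the 35 members 40.7%. Neither share is matched to this list, in which GFPT2 lay under that level (0.41 CPM in WT and 0.48 in METTL3-KO). GLUL, the glutamine synthetase, went from 218.1 ± 13.1 to 310.6 ± 2.2 CPM, a rise of 0.51 ± 0.07 (adjusted p = 0.000281). ASNS, which spends glutamine to make asparagine, went from 306.7 ± 37.8 to 206.5 ± 13.6 CPM (log2 fold change -0.57 ± 0.09, adjusted p = 0.00103), and NADSYN1, the NAD synthetase, rose by 0.23 (adjusted p = 0.0191). This count moved with single samples, with 10 calls without WT 3, 2 without METTL3-KO 2 and 3 without METTL3-KO 3. Among 8 further mitochondrial carriers, mainly of amino and keto acids, 1 fell and 2 rose (37.5%). SLC25A15, the ornithine carrier of the urea cycle, went from 11.2 ± 1.9 to 5.33 ± 0.30 CPM (log2 fold change -1.07 ± 0.14, adjusted p = 0.0002), and the aspartate-glutamate carriers SLC25A12 and SLC25A13 rose by 0.27 and 0.22 (adjusted p = 0.0205 and 0.0373). Leaving out WT 1, METTL3-KO 1 or METTL3-KO 2 left 1 call of 8. On the propionate and hydroxyglutarate list 1 of 10 tested genes fell and 3 rose, 4 calls in all. Of all tested genes 26.8% passed, and of the genes at or above the least abundant of the 35 members 40.7%. Neither share is matched to this list, which also holds genes under that level, such as ADHFE1 (0.06 CPM in WT and 0.10 in METTL3-KO). The count is therefore no result about the list. PCCB, the beta subunit of propionyl-CoA carboxylase, rose by 0.42 ± 0.07 (adjusted p = 0.00125) and MUT, the methylmalonyl-CoA mutase that yields succinyl-CoA, by 0.29 ± 0.08 (adjusted p = 0.0139). Without METTL3-KO 1 this list had 2 calls.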

How the data were processed

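Per the labels and the study's methods, the authors made TruSeq RNA libraries, sequenced them as read pairs, aligned them with TopHat v2.0.11 to hg19 (GRCh37) and counted pairs per gene symbol with HTSeq in union mode. The deposited files hold raw counts per gene for each sample, without normalization. Read pairs over more than 1 gene (7.95% to 8.77% of all pairs listed) or with several alignments (13.4% to 14.7%) were in no gene's count and stayed out of library sizes here.

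Samples were grouped by the titles in the labels. Genes with fewer than 5 counts in total in both conditions were removed (34186 of 56638 symbols), which left 22452. METTL3-KO was tested against WT with edgeR 4.0.16 (R 4.3.3; TMM, quasi-likelihood, two-sided, Benjamini-Hochberg over all tested genes); DESeq2 1.42.0, RLE normalization, other filters, a replicate block, length and GC offsets and left-out samples were alternatives. The script was tested on simulated data. Standard errors are the absolute log2 fold change divided by the root of the F statistic; ± after CPM is the SD over 3 samples. No measured value entered the rule for the members, but the members, lists and tests were chosen with earlier results of these data known. All members were named, and from each further list at most 3 genes with the smallest p among those passing. Some genes of these further lists are not reported here by name. Gene positions came from the GENCODE annotation of GRCh37, in which 35352 symbols were matched (1838 by an older symbol). Depth was 20936091 to 30142144 counts per sample, with 117 to 11274 per member.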

Additional observations from a re-analysis of the deposited data

How the results depend on the processing

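The replicate numbers of the labels did not pair the samples: deviations of same-numbered samples had correlations of -0.586, -0.39 and -0.784, and no sample correlated best with its own number. The deposited files number WT 2 and WT 3 differently, and by their numbers only WT 1 with METTL3-KO 1 (-0.586) and WT 2 with METTL3-KO 3 (0.632) would match, so the block below holds for the labels' numbers. With those numbers as a replicate block, 1581 genes were lower and 1694 higher, 4 members lower and 3 higher, and the calls on the lists for pyruvate entry, glutamine, carriers and propionate were 1, 2, 1 and 2. Without the third sample of both groups 4810 genes were lower and 4573 higher, 13 members were lower, the members' median was -0.095, and the lists for further enzymes, lipoate and assembly, pyruvate entry, glutamine and carriers had 6, 6, 5, 11 and 5 calls; the cause was not tested. With length and GC offsets the lipoate and pyruvate lists had 4 and 5 calls, and 1 lipoate gene passed under edgeR's filterByExpr. Leaving out single samples gave 1976 (without METTL3-KO 2) to 3820 (without WT 3) genes lower, 0 to 3 lipoate, 2 to 4 pyruvate, 2 to 10 glutamine, 1 to 4 carrier and 2 to 4 propionate calls.

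No called member changed sign under any of the 14 alternatives. Uncalled members that did so without the third samples were PDHB (-0.131), CS (-0.002), IDH3G (-0.131), SDHA (-0.061), SDHD (-0.026), ME3 (-0.095), SLC25A10 (-0.112) and SLC25A11 (-0.117), and the GOT1 to GOT2 and ME2 to ME3 ratios moved to -0.017 and 0.109. Over single left-out samples PDHB ranged from -0.069 to 0.094, IDH3G from -0.066 to 0.06, SDHA from -0.022 to 0.048, PCK2 from -0.033 to 0.21, ME2 from -0.065 to 0.003, ME3 from -0.02 to 0.229, SLC25A10 from -0.061 to 0.091 and SLC25A11 from -0.033 to 0.12. The ratio of GOT1 to GOT2 ranged from -0.032 to 0.045 and that of ME2 to ME3 from -0.263 to 0.031. DESeq2 and RLE normalization gave 7 lower and 6 higher members, as did the weakest filter.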
